A study of Homo sapiens with 6 samples.

Results

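The IGF2BP3 clusters described here were found with RNase I under every condition tested and with RNase T1 under none. They were chosen by their read counts and overlaps, starting from the library in which RNase I was added to both the lysate and the beads at 0.05 U/µL (0.05/0.05). A cluster was kept when it held 20 or more reads, overlapped by 1 nt or more on the same strand a cluster of both other RNase I libraries, and overlapped no cluster of either RNase T1 library. Of the 90999 clusters of that library, 22013 held 20 or more reads, 16229 of these recurred in both other RNase I libraries (called candidates), and 3272 of the candidates, 20.2%, had no RNase T1 cluster. These 3272 are named T1-absent clusters, and the other 12957 candidates T1-overlapping clusters. Among the latter, 6521 overlapped both RNase T1 libraries, 6015 overlapped RNase T1 1/1 alone and 421 overlapped RNase T1 0.25/0.25 alone. The clusters were thus selected on reads, recurrence with RNase I and absence with RNase T1, and these values are given as a description. The genome sequence, the annotation and the conversion counts took no part in the choice beyond the cluster calls themselves. Every cluster called in that library had 2 or more positions with T-to-C conversion.

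The 6 libraries came from HCT116, an established human colorectal carcinoma line, here carrying the Tet-OsTIR1-PURO transgene. All cells received 100 µM 4-thiouridine (4sU) for 15 h and were exposed to UV light at 365 nm, and the endogenous protein was pulled down with an IGF2BP3 antibody in 5 libraries and with control IgG in the other. The study reports that this antibody partially recognizes the paralog IGF2BP2, so some of the clusters may come from that protein. RNase I was used at 0.05/0.05, 0.1/0.025 and 0.05/0.025 U/µL (in lysate/on beads) and RNase T1 at 1/1 and 0.25/0.25 U/µL, and the IgG library was treated with RNase I at 0.1/0.025 U/µL. There was 1 library per condition. Between the enzymes 3 libraries stand against 2, but the clusters were chosen on that difference, so it was not tested and no p-value is given. Per the study's methods the complexes of RNase I 0.05/0.05 and RNase T1 1/1 were electroeluted from the gel while the remaining IGF2BP3 libraries were extracted from crushed gel, so that gel extraction and RNase concentration cannot be told apart. The RNase I libraries held 2362467, 803490 and 670712 reads in clusters, and the RNase T1 libraries 1157194 and 182448. At the same share of cluster reads, the minimum of 20 reads, which is 8.47 CPM (reads per 1000000 cluster reads), corresponds to 9.80 reads in RNase T1 1/1 and to 1.54 reads in RNase T1 0.25/0.25, while the smallest cluster listed in either had 2 reads. Without the shallow RNase T1 0.25/0.25 library, 22.8% of the candidates lacked a cluster. Over all 90999 clusters, without a minimum of reads, 62.5% lacked an RNase T1 cluster.

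IGF2BP3 is an RNA-binding protein with RRM and KH domains that binds mRNAs, mostly in 3′UTRs, and affects their stability, localization and translation. In PAR-CLIP, 4sU in the RNA is crosslinked to the bound protein, and reverse transcription past the crosslink leaves a T-to-C conversion that marks the site. The RNase decides which pieces of the bound RNA reach the sequencer. RNase I cuts after any of the 4 nucleotides, while RNase T1 cuts single-stranded RNA behind guanosines. A stretch from behind a guanosine through the next guanosine, called here a G-to-G fragment, is therefore the piece that complete RNase T1 digestion would leave. Fragments were measured on the genome sequence, also past the cluster edges, so near exon ends they can include intron bases absent from spliced mRNA. The authors kept reads of 18 to 45 nt.

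The longest G-to-G fragment a cluster touched was the sequence feature in which the T1-absent clusters differed most from the T1-overlapping ones. It is shown first for 6 of the T1-absent clusters with the most reads in protein-coding exons, as 30 nt of GRCh38 read 5′ to 3′ on the strand of the gene, with t for U. Capitals mark every G, the nucleotide after which RNase T1 cuts. The longest run between capitals, together with the G that closes it, is the fragment.
PABIR2, chrX:134770900-134770929, minus strand: aGGGcaGtttaatatctacaaaGaaGcttt
ARHGAP27, chr17:45394231-45394260, minus strand: ccccaGccccaccaacccacctGttcattt
PHLDB2, chr3:111974678-111974707, plus strand: actcaGaactcctttcatatcaaGacaaGt
RPL35, chr9:124860174-124860203, minus strand: aacctcaGGaaattctacaaGGtGaGtctG
RPL13, chr16:89563195-89563224, plus strand: tGGataatGctttactttctGtGttGaaGc
SUPT5H, chr19:39474342-39474371, plus strand: ctaccaGaatacccactccccaGccaGcta
The fragments measured 16 nt in PABIR2, 17 nt in ARHGAP27, 18 nt in PHLDB2, 12 nt in RPL35, 12 nt in RPL13 and 16 nt in SUPT5H. The protein-coding exon cluster with the most reads, in FTL, is not among those shown and had a longer one, of 22 nt.

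For contrast, the same is shown for the 5 clusters with the most reads among those that overlapped both RNase T1 libraries, all in 3′UTRs. Fragments over 28 nt are shown by their last 30 nt.
CDKN1A, chr6:36686912-36686941, plus strand: accttcctcatccaccccatccctccccaG
EEF2, chr19:3976262-3976291, minus strand: GacacccaacactttttccatttcttcaGa
ERRFI1, chr1:8012229-8012258, minus strand: ctGtattaataaacatacaacacaaGctGG
HMGA1, chr6:34245458-34245487, plus strand: tcacttttcatccttccccaacttccctaG
KITLG, chr12:88494519-88494548, minus strand: aaaattaatttttcttcaatacaataataG
Their longest fragments were 30 nt in CDKN1A, 28 nt in EEF2, 23 nt in ERRFI1, 31 nt in HMGA1 and 31 nt in KITLG. These 5 clusters were also longer, from 687 nt in EEF2 to 1972 nt in KITLG, against 80 nt in RPL35 to 285 nt in PHLDB2 for the 6 above, and a longer cluster touches more fragments. Comparisons within classes of cluster length are given below for all clusters.

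The windows around the mode, the position of the cluster with the highest crosslink score as deposited, showed no such contrast in these clusters. The mode was often not itself a possible crosslink, which 4sU places on a T. A T stood there in 29.2% of T1-absent and 26.1% of T1-overlapping clusters, and an A in 34.2% and 36.9%, so that values at the mode describe the surroundings of that maximum. The next lines show the 30 nt around it, with the mode as base 16, for 9 of the T1-absent clusters with the most reads, counting 1 per gene.
Intergenic, chr19:18033165-18033194, plus strand: GtttGtttcaGaaGccccatttGcacaGGt
ENSG00000235939 intron, chr10:49441213-49441242, plus strand: actGGGtacaaGaGccatGtaccaatGtac
ENSG00000230021 intron, chr1:632600-632629, minus strand: ccttccttttttGtctaGattttatGtata
Intergenic, chr1:204507006-204507035, minus strand: cGGGcGtcttGttctcttttcctcaatGaa
RPL39P3, chr6:73373297-73373326, minus strand: GaaGaGaaGGaGccctcttcctttctccGc
Intergenic, chr21:28887092-28887121, minus strand: aaGtGacaaaatatataatGttttactGct
Intergenic, chr1:109048300-109048329, plus strand: aaaccttttttGGGtGacctGcatatttaG
ROBO2 intron, chr3:76435513-76435542, plus strand: ccttGGtGctcttaaaactGcttctctGct
PABIR2, chrX:134770871-134770900, minus strand: ttaGaaGctGaaaaaGtcaatGtGattGtG
The same windows are given for the 5 T1-overlapping clusters above.
CDKN1A, chr6:36686705-36686734, plus strand: aaGGGGaaGGGacacacaaGaaGaaGGGca
EEF2, chr19:3976628-3976657, minus strand: tcGacaacaGcaGccGccccaGccaGGtGG
ERRFI1, chr1:8012366-8012395, minus strand: acGttaGactcaGatGGaaaaGtattctaG
HMGA1, chr6:34245517-34245546, plus strand: GGttacaGGaaGGcaGGaGGGGtGaGtccc
KITLG, chr12:88496431-88496460, minus strand: tcaGaacaGtctGccaaGaaGGacattGGc
These windows held 7 to 14 guanosines in the 5 T1-overlapping clusters and 3 to 8 in the 9 T1-absent ones. The mode lay on the first or last nucleotide of 42.6% of T1-absent and 37.9% of T1-overlapping clusters, and the middle of the cluster was therefore used as a second reference point.

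The T1-absent clusters were small. They held a median of 31 reads in RNase I 0.05/0.05 (quartiles 24 and 43, highest 242) on a median length of 89 nt (quartiles 59 and 125), whereas the T1-overlapping clusters held a median of 56 reads (quartiles 34 and 107) on 138 nt (quartiles 92 and 207). The clusters they met in RNase I 0.1/0.025 and 0.05/0.025 held medians of 13 and 12 reads. As a share of cluster reads the medians were 13.1, 16.2 and 17.9 CPM in RNase I 0.05/0.05, 0.1/0.025 and 0.05/0.025. The rule required a cluster in each of the 3 RNase I libraries, so that similar levels are in part a product of the selection. The rank correlation over the 3272 clusters was 0.462 to 0.522 between pairs of libraries, which share the protocol and the antibody. Values in RNase I 0.1/0.025 and 0.05/0.025 sum every overlapping cluster there, which can reach beyond the T1-absent cluster. Together the T1-absent clusters held 122020 reads, 5.16% of the cluster reads of the library, on 319260 nt. The share of candidates without an RNase T1 cluster was 31.9% at 20-49 reads, 12.2% at 50-99 reads and 1.77% at 100 reads or more, and depth is part of what the rule reads. At the threshold, 187 clusters with 20 reads and 199 with 21 reads were inside, with median lengths of 70 and 78 nt and 27.3% and 32.2% with a longest fragment of 18 nt or more. Just outside, 191 clusters with 18 reads and 202 with 19 reads had median lengths of 68 and 72 nt and 27.7% and 30.2% with such a fragment.

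Short G-to-G fragments set the T1-absent clusters apart. The longest fragment had a median of 16 nt in T1-absent (quartiles 13 and 18) and 22 nt in T1-overlapping clusters (quartiles 17 and 27). A fragment of 18 nt or more, the shortest read kept, was touched by 32.4% of T1-absent and 74.8% of T1-overlapping clusters, a difference of -42.4 percentage points (95% interval -44.1 to -40.6, Newcombe). It was touched by 81.8% of the clusters that overlapped both RNase T1 libraries. The clusters of RNase T1 1/1 themselves touched one in 71.2% of cases and, at 20 reads or more, in 83.8%. The intervals cover counting error between clusters only, which are not replicates, and clusters of a gene are not independent.

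**Figure D1:**
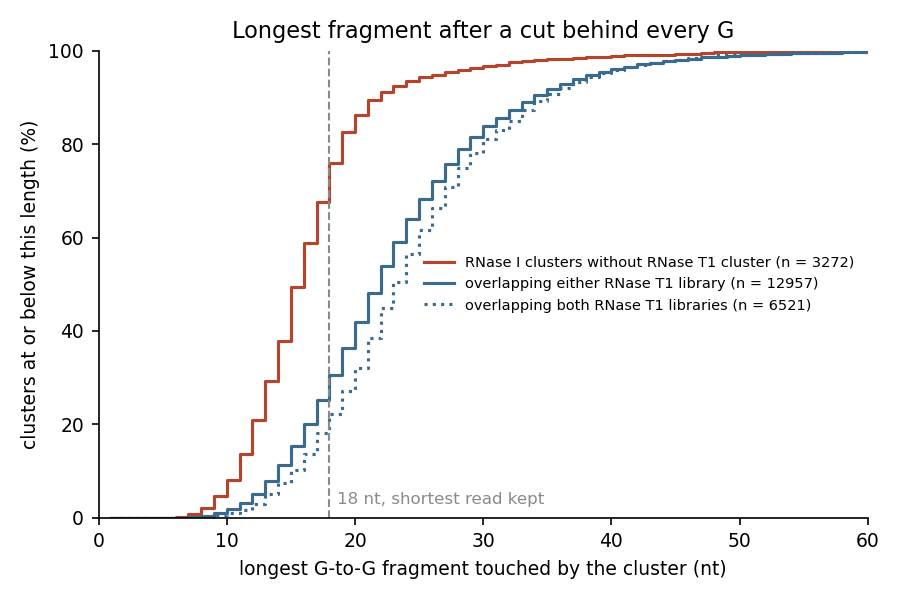
Cumulative share of clusters (y axis, percent) by the longest G-to-G fragment they touch (x axis, nt) for T1-absent clusters (red), T1-overlapping clusters (blue) and those overlapping both RNase T1 libraries (dotted). The dashed line marks 18 nt, the shortest read kept, and the red curve lies to the left of both blue ones, with medians of 16 and 22 nt for the red and the solid blue curve.

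The difference in longest fragment was seen in every class of reads and of length. A fragment of 18 nt or more was touched by 32.2% of T1-absent and 71.9% of T1-overlapping clusters with 20-49 reads, by 34.1% and 73.1% with 50-99 reads, and by 27.0% and 81.3% with 100 reads or more. In clusters under 60 nt the shares were 30.8% and 52.1%, in those of 60-99 nt 28.3% and 64.5%, and in those of 100 nt or more 36.5% and 80.5%. The gap was thus narrowest in the shortest clusters, at -21.4 points (-25.6 to -16.9), and it stood at -44.0 points in the longest. Within genes, 1151 T1-absent clusters of 823 genes could each be set beside the T1-overlapping cluster of the same gene nearest to it in length, with lengths no more than 1.25-fold apart. The T1-absent cluster had the shorter longest fragment in 70.4% of these pairs, the longer one in 25.1%, and an equal one in 4.52%, with medians of 15 and 20 nt. Median length was 109 nt on both sides, and median reads were 32 and 42.

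Read the other way, the share of candidates without an RNase T1 cluster fell with the longest fragment. It was 56.0% where no fragment exceeded 9 nt, 47.5% at 10-13 nt, 35.7% at 14-17 nt, 19.3% at 18-21 nt, 5.97% at 22-25 nt, 3.48% at 26-29 nt and 4.80% at 30 nt or more. The largest step in points lay between 14-17 and 18-21 nt, and the largest as a ratio between 18-21 and 22-25 nt. From the first to the last class median reads rose from 34 to 62 and median length from 56 to 156 nt. The cause of the fall was not tested. Among clusters with 20-49 reads, 53.1% were T1-absent when the longest fragment was under 18 nt and 17.4% when it was 18 nt or more. The same shares were 25.4% and 6.10% at 50-99 reads, and 6.57% and 0.593% at 100 reads or more.

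**Figure D2:**
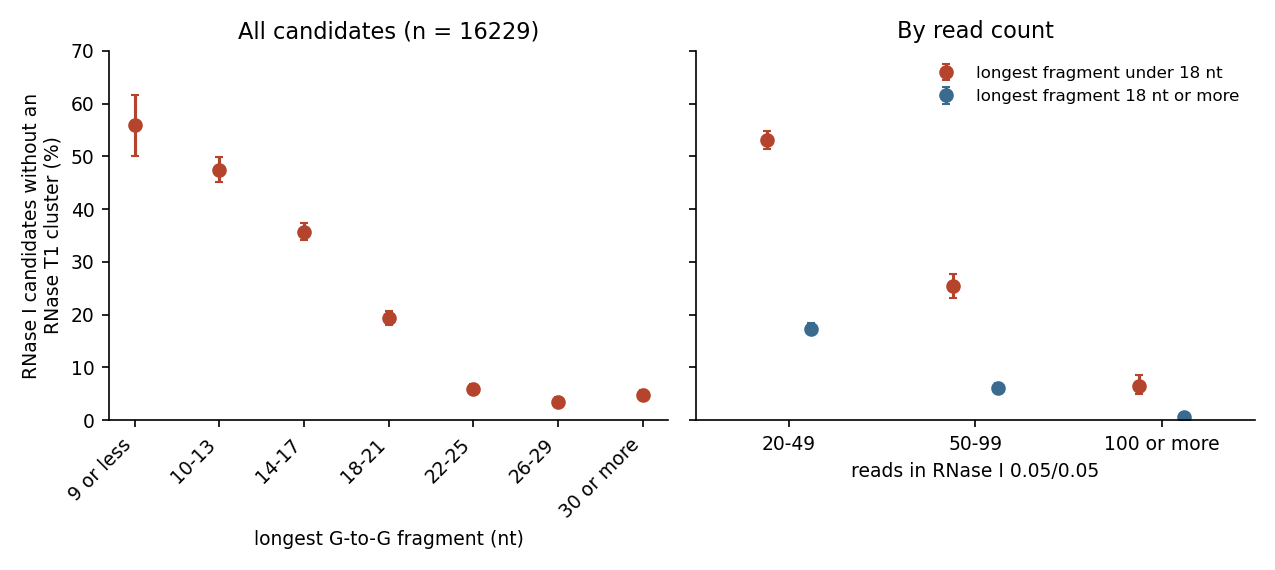
Share of RNase I candidates without an RNase T1 cluster (y axis, percent, with 95% Wilson intervals) by the longest G-to-G fragment (left, all 16229 candidates) and by reads in RNase I 0.05/0.05 (right) for clusters with a longest fragment under 18 nt (red) or of 18 nt or more (blue). The share fell from 56.0% to 4.80% across the fragment classes, and red lay above blue in each read class.

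The fragment at a single point of the cluster differed less. At the mode, 7.09% of T1-absent and 12.2% of T1-overlapping clusters lay in a fragment of 18 nt or more, a difference of -5.11 points (-6.12 to -4.03). At the middle of the cluster the shares were 6.42% and 20.8%. With 1 cluster per gene the difference at the mode was -2.08 points with an interval that includes 0 (-4.17 to 0.357), while that of the longest fragment was -43.4 points. In clusters with 100 reads or more, 63 of them T1-absent, the difference at the mode was -2.06 points (-6.04 to 6.85).

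T1-absent clusters were richer in guanosine. G made up a median of 20.0% of the cluster in T1-absent and 17.9% in T1-overlapping clusters. In 41 nt around the mode the share was 21.6% against 20.8%, and around the middle 20.0% against 17.4%. With 1 cluster per gene the difference around the mode fell from 0.881 to 0.352 points, with an interval that includes 0 (-0.143 to 0.853). Intervals of the G share count the nucleotides of the windows and not the clusters. Nucleotides of a cluster are not independent, so these intervals are likely too narrow. U, read as T, moved the other way, with a median of 30.3% of the cluster against 32.2%. The higher G share around the mode was not found in the 63 T1-absent clusters with 100 reads or more, where it was 21.3% against 22.2% (difference -0.892 points, -2.44 to 0.743).

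**Figure D3:**
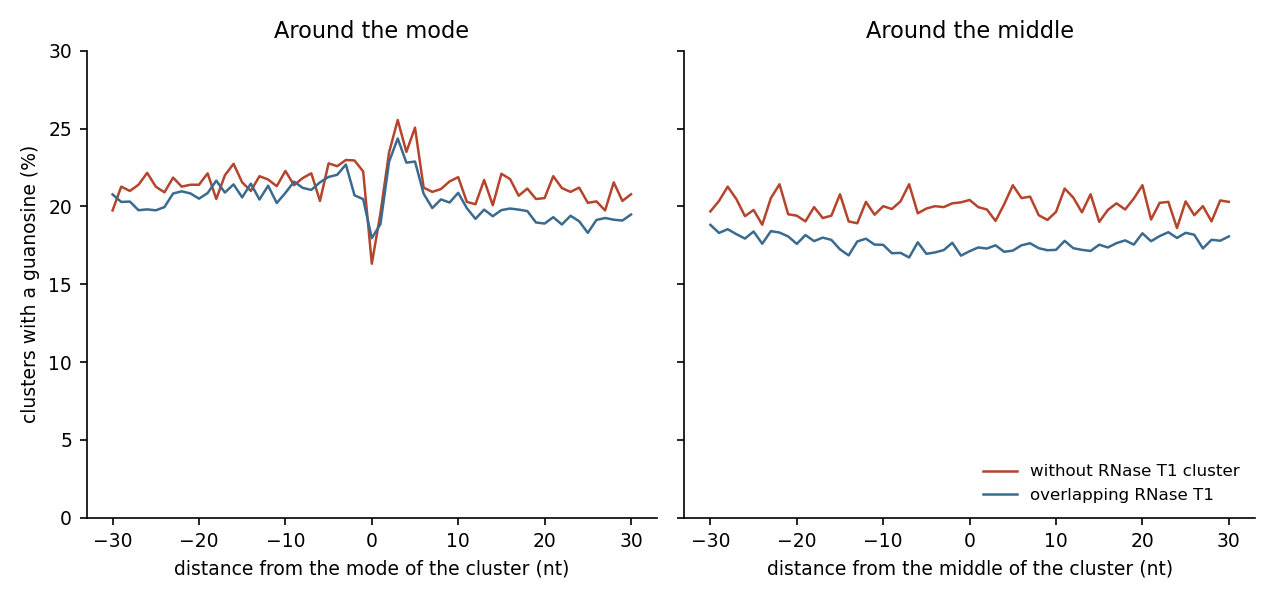
Percent of clusters with a guanosine (y axis) at each distance in nt (x axis) from the mode (left) and from the middle (right) of the cluster, for T1-absent (red) and T1-overlapping clusters (blue). Around the middle the red line runs near 20.0% and the blue one near 17.4%, while around the mode the lines lie closer together and both dip at the mode itself.

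Tetramers followed the same order. Of all 256 tetramers counted in 41 nt around the mode, the 10 with the largest excess in T1-absent clusters all contained G (by 2.33 to 3.46 points), and none of the 10 with the largest deficit did (-5.39 to -3.00 points). The same held around the middle. CAGU, a tetramer named in the study, was present in 20.7% of T1-absent and 18.7% of T1-overlapping windows at the mode (difference 1.94 points, 0.422 to 3.50), and in 27.0% and 22.6% at the middle. By length, the CAGU difference at the mode was 4.91 points under 60 nt, and 0.404 at 60-99 nt and 0.503 at 100 nt or more, the last pair with intervals that include 0. It was 0.963 points at 20-49 reads, also with an interval that includes 0. CAUA, which has no G, was present in 9.99% and 12.4% (difference -2.44 points, -3.58 to -1.23) at the mode. For CAUU no direction held at the mode, with 20.2% and 18.9% (difference 1.32 points, -0.190 to 2.88) over all lengths but differences of -0.461, -2.92 and -0.337 points under 60, at 60-99 and from 100 nt, each with an interval that includes 0. At the middle CAUU was present in 26.8% and 30.2%. ACAC, a CA repeat, and GGAC, a common core of m6A sites, differed by -0.598 and 0.583 points at the mode, both with intervals that include 0 (-1.87 to 0.744 and -0.578 to 1.82). With 1 cluster per gene, none of the 5 intervals at the mode excluded 0.

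The T1-absent clusters lay less often in 3′UTRs. By GENCODE annotation 56.1% touched a 3′UTR of any transcript, against 75.6% of T1-overlapping clusters (difference -19.5 points, -21.4 to -17.7). Coding sequence held 14.2% and 9.12%, processed pseudogene exons 9.47% and 2.63%, introns 4.10% and 2.84%, lncRNA exons 1.65% and 1.46%, and intergenic sequence 12.7% and 6.87%. The 5′UTR held 0.489% and 0.340%. The 3′UTR deficit was present at each read count, at 57.3% and 72.1% for 20-49 reads, 53.1% and 76.3% for 50-99 reads, and 28.6% and 80.5% for 100 reads or more. By length it was smaller, at 19.7% and 33.2% under 60 nt, 58.3% and 64.1% at 60-99 nt, and 76.3% and 83.9% at 100 nt or more. Counting clusters that touch both as coding moved the shares in coding sequence to 25.6% and 20.4%.

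**Figure D4:**
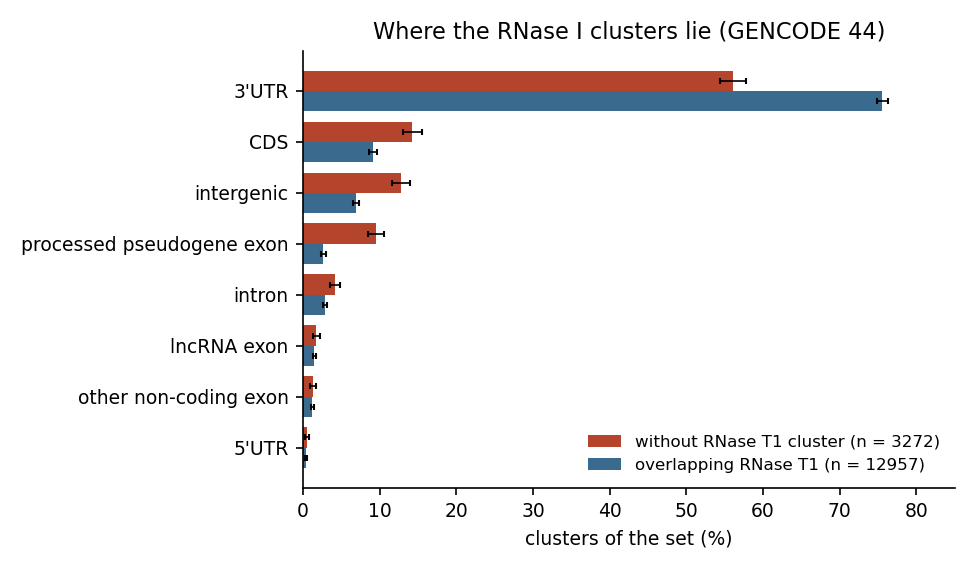
Percent of clusters (x axis, with 95% Wilson intervals) in each class of GENCODE annotation (y axis) for T1-absent (red) and T1-overlapping clusters (blue). The red bar is shorter than the blue one for the 3′UTR, at 56.1% against 75.6%, and longer for coding sequence, intergenic sequence and processed pseudogene exons.

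The short fragments were not particular to 3′UTRs. A longest fragment of 18 nt or more was touched by 34.2% of T1-absent and 78.3% of T1-overlapping clusters in 3′UTRs, 25.8% and 67.3% in coding sequence, 33.6% and 72.0% in introns, and 16.7% and 71.4% in lncRNA exons. The gap was smaller in intergenic clusters, at 37.0% and 62.9%, and smallest in processed pseudogene exons, at 28.1% and 39.9%. Within the 3′UTR the place was similar. The 20% of the 3′UTR next to the stop codon held 29.3% of the 1537 T1-absent clusters that could be placed on the main transcript and 27.6% of the 8892 T1-overlapping ones, and the last 20% held 15.8% and 14.3%.

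Many of the clusters outside annotated genes and in pseudogenes carried sequence of a coding gene. The whole cluster sequence occurred verbatim in a protein-coding transcript of another gene for 481 T1-absent clusters, 14.7%, against 7.66% of T1-overlapping ones. Within classes of length the shares were close, at 37.2% and 38.3% under 60 nt, 12.8% and 12.5% at 60-99 nt, and 2.52% and 2.67% at 100 nt or more. Such a match was found for 158 of 310 T1-absent clusters in processed pseudogenes, 215 of 416 intergenic and 65 of 134 intronic ones, and for 188 of 341, 513 of 890 and 164 of 368 T1-overlapping ones. Within these classes the share was thus lower for T1-absent clusters in processed pseudogenes and intergenic sequence and higher in introns. For 79 T1-absent clusters (2.41%, against 0.533%) the match ran across an exon junction of that gene, 70 of them in processed pseudogenes. A read from a spliced mRNA across a junction has no contiguous place in the genome other than such a copy, so that the source of these clusters cannot be told apart from the coding gene. Leaving out every cluster with such a match or with a sequence listed more than once, the 3′UTR share of T1-absent clusters was 65.9% and the longest fragment difference -43.8 points.

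Several of the largest T1-absent clusters were of this kind. RPL39P3, a processed pseudogene of a ribosomal protein gene, held 171, 64 and 76 reads in RNase I 0.05/0.05, 0.1/0.025 and 0.05/0.025, and its 90 nt are also found in the RPL39 transcript. An intergenic cluster at chr1:109048315-109048355 held 167, 76 and 65 reads, and its sequence is found in transcripts of RAN, a GTPase of nuclear transport. A cluster in an intron of ROBO2, an axon guidance receptor, held 164, 44 and 31 reads, with its sequence in transcripts of CAP1, a regulator of actin. The mitochondrial tRNA gene MT-TS1 held 181, 82 and 55 reads on 39 nt, and a copy of the same sequence on chromosome 1, in an intron of ENSG00000230021, held 181, 83 and 54 reads. Both places listed nearly the same counts.

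Low conversion marked a few of them. FTH1P8, a ferritin heavy chain pseudogene, held 141, 3 and 52 reads with 0.0426 conversion events per read, the lowest of the 3272 clusters. An intergenic cluster at chr21:28887057-28887106 held 169, 84 and 80 reads with 0.0651 events per read. As a group the T1-absent clusters carried conversions at the level of the others, with a median of 0.652 events per read (quartiles 0.565 and 0.731) against 0.634 (0.571 and 0.692). More than 0.5 events per read were found in 86.2% of T1-absent and 89.2% of T1-overlapping clusters. None of the 3272 overlapped a cluster of the IgG library, which allows a share of up to 0.0917% (3 counts of the total), against 21 of the 12957 T1-overlapping clusters, and the IgG library listed 25 clusters in all.

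Among protein-coding genes the largest T1-absent clusters lay in both coding sequence and 3′UTRs. The coding sequence of FTL, the ferritin light chain of iron storage, held 163, 39 and 23 reads in RNase I 0.05/0.05, 0.1/0.025 and 0.05/0.025. The 3′UTR of PABIR2, a PP2A-interacting protein gene, held 157, 79 and 90 reads. That of ARHGAP27, a GTPase-activating protein gene, held 148, 55 and 52 reads. The first library was the deepest and the one with the minimum of reads, and as a share of cluster reads the order differed between genes. FTL held 69.0, 48.5 and 34.3 CPM, PABIR2 66.5, 98.3 and 134 CPM, and ARHGAP27 62.6, 68.5 and 77.5 CPM. The 3′UTR of PHLDB2, a gene of microtubule anchoring at the cell cortex, held 145, 40 and 20 reads. SUPT5H, a subunit of the transcription elongation factor DSIF, held 129, 60 and 49 reads in its coding sequence. None of these 5 genes lacked RNase T1 clusters altogether, with between 1 exonic cluster of RNase T1 1/1 in SUPT5H and ARHGAP27 and 20 in PABIR2. The nearest RNase T1 cluster lay 13 nt away in PHLDB2, 90 nt in ARHGAP27, 112 nt in FTL, 115 nt in PABIR2 and 182 nt in SUPT5H. Other exonic clusters among the 15 with the most reads lay in the ribosomal protein genes RPL35 and RPL13, in a Y RNA (126, 33 and 68 reads), and in the processed pseudogenes ENSG00000241494, RPL37P6 and PABPC1P4, with 131 to 141 reads each. A longest fragment of 18 nt or more was found in FTL, PHLDB2, ENSG00000241494 (19 nt), the Y RNA (29 nt) and RPL37P6 (53 nt).

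**Figure D5:**
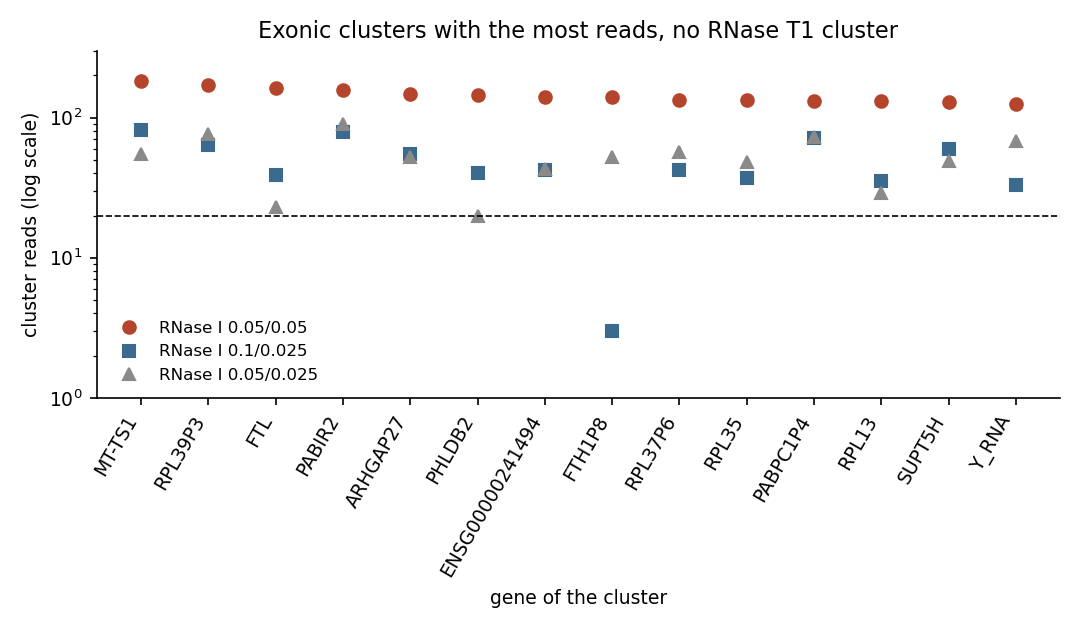
Reads (y axis, log scale) of 14 of the 15 exonic T1-absent clusters with the most reads, 1 per gene (x axis), in the RNase I libraries 0.05/0.05 (circles), 0.1/0.025 (squares) and 0.05/0.025 (triangles). The dashed line marks the minimum of 20 reads that applied to the circles, and FTH1P8 with 3 reads in RNase I 0.1/0.025 is the one value far below it.

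Most T1-absent clusters lay in genes that RNase T1 did recover elsewhere. The 2722 T1-absent clusters on exons fell in 1977 genes, 1671 of them protein coding. Of these genes 1465 had 1 such cluster, 365 had 2 and 147 had 3 or more. An exonic RNase T1 cluster was present in 1584 of the 1671 protein-coding genes, 94.8%, and 95.7% of the T1-absent clusters of coding genes lay in them. By the rule, a gene with a candidate but no T1-absent cluster has an RNase T1 cluster at that candidate. The same share over all 4084 protein-coding genes with a candidate is not given but can hardly be lower. These shares are therefore not particular to T1-absent clusters. Conversely, 40.9% of the 4084 protein-coding genes with a candidate had at least 1 T1-absent cluster, and in 353 of them every candidate was T1-absent.

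The nearest RNase T1 cluster on the strand was a median of 135 nt away (quartiles 42 and 976). Over all 90999 clusters of the library, with overlaps counted as 0, the median was 52 nt (quartiles 0 and 491). By the rule no T1-absent cluster overlaps one, so the larger distance follows at least in part from the selection. Distances over all clusters without an RNase T1 cluster are not given, so the shares below have no background. The nearest RNase T1 cluster lay within 50 nt for 930 T1-absent clusters, 28.4%, within 10 nt for 246, 7.52%, and more than 1000 nt away for 810, 24.8%. For 342 clusters (10.5%) the partner cluster in another RNase I library did overlap an RNase T1 cluster although the one in RNase I 0.05/0.05 did not. Without the clusters that had an RNase T1 cluster within 50 nt, 2342 remained, with the longest fragment difference at -42.5 points and 49.6% in 3′UTRs.

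LCOR, a ligand-dependent nuclear receptor corepressor gene, had the most T1-absent clusters, 7 of its 25 candidates, all annotated as 3′UTR. They held 20 to 68 reads and had longest fragments of 10 to 26 nt, and RNase T1 1/1 listed 89 clusters with 1793 reads on the exons of the gene. Those starting at chr10:96949147 and chr10:96958608 could not be placed on the 3′UTR of the main transcript. MED13, a subunit of the Mediator kinase module, had 6 of 33 candidates, with 20 to 103 reads and longest fragments of 10 to 18 nt. DCBLD2, a transmembrane receptor gene, had 6 of 23, with 30 to 56 reads and longest fragments of 11 to 25 nt. CLTC, the clathrin heavy chain, had 6 of 12, with 28 to 47 reads and longest fragments of 12 to 19 nt. All T1-absent clusters of MED13, DCBLD2 and CLTC lay in the coding sequence. SSR1, a subunit of the translocon-associated complex, and PUM2, an RNA-binding repressor, had 6 each, spread over 3′UTR and coding sequence. HSP90AB3P, a pseudogene of HSP90AB1, and the lncRNA ENSG00000285756 also had 6 each, and for ENSG00000285756 some of these were listed with the same reads at repeated places on chromosome X.

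Cytosolic ribosomal protein genes held many of these clusters. Of their 256 candidates 82, 32.0%, were T1-absent, against 17.4% of the 13396 candidates of all protein-coding genes, and 51 of the 71 genes with a candidate had 1 or more. The list was made by gene symbol and also holds RPL7L1 and RPL10L. Over all candidates the share fell with reads and with length (44.4% under 60 nt, 27.4% at 60-99 nt, 13.2% at 100 nt or more). Reads and lengths of the ribosomal candidates are not given, so the 2 shares are not matched for them. In RPL35 the coding cluster held 133, 37 and 48 reads in RNase I 0.05/0.05, 0.1/0.025 and 0.05/0.025, with a longest fragment of 12 nt. In RPL13 the 3′UTR cluster held 131, 35 and 29 reads with a G share of 31.3% and a longest fragment of 12 nt. In CPM these were 56.3, 46.0 and 71.6 in RPL35 and 55.5, 43.6 and 43.2 in RPL13, so that RPL35 was highest in RNase I 0.05/0.025 and RPL13 in 0.05/0.05. Both had a longest fragment below the shortest read kept. Many processed pseudogenes stem from such genes, and reads of near-identical copies cannot be assigned with certainty.

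The other gene lists lay nearer to 17.4%. T1-absent clusters made up 16.5% of the candidates of translation factors (16 of 97), 13.1% of chaperones (8 of 61), 12.8% of glycolysis genes (5 of 39), 11.8% of classical IGF2BP targets (8 of 68), and 16.2% of the genes the study names (11 of 68). Actins, tubulins and related genes had 6 of 46. EEF2, the ribosomal translocase whose 3′UTR held 1 of the largest T1-overlapping clusters, had a T1-absent cluster in its coding sequence with 68, 20 and 14 reads, a G share of 29.9% and a longest fragment of 13 nt. CDKN1A, the cell cycle inhibitor p21, likewise had one in its coding sequence with 32, 9 and 7 reads, a G share of 36.4% and a longest fragment of 9 nt. Its 3′UTR cluster, with 8859, 4619 and 3781 reads, had one of 30 nt and met RNase T1 clusters of 3227 and 939 reads. In these genes the contrast between coding and 3′UTR cluster follows from the selection. The coding clusters are T1-absent by the rule, and the 3′UTR clusters were shown for overlapping both RNase T1 libraries. The 3′UTR clusters also held far more reads, and the nearest RNase T1 cluster lay 87 nt from the EEF2 coding cluster.

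Among other classical targets, a cluster of the adhesion receptor CD44 held 76, 37 and 27 reads. A cluster of ACTB (β-actin) held 43, 17 and 30, and 1 of the chromatin protein HMGA2 30, 5 and 8. Their longest fragments were 15, 23 and 17 nt. All were annotated as 3′UTR, but those of CD44 and ACTB could not be placed on that of the main transcript. Of the 3 IGF2BP paralogs 2 had candidates, 9 in all, and 1 of these 9 was T1-absent. It lay in the 3′UTR of IGF2BP3 itself, with 30, 13 and 9 reads and a longest fragment of 17 nt. HSP90AB1 and HSP90AA1, cytosolic HSP90 chaperones, had coding clusters with 81, 23 and 31 and with 63, 14 and 21 reads, and longest fragments of 14 and 10 nt. LDHB, a lactate dehydrogenase subunit, had one with 64, 22 and 17 reads and GAPDH one with 39, 17 and 22, each with a longest fragment of 15 nt. Of the clusters in this paragraph, that of ACTB alone reached 18 nt. Other genes of the lists did so too, with longest fragments of 27 nt in POLR1A, the largest subunit of RNA polymerase I, 24 nt in EIF3A and 19 nt in EIF4A1, translation initiation factors, 19 nt in ACTG1 (γ-actin) and 18 nt in HK2, a hexokinase.

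In 87 protein-coding genes with a T1-absent cluster, neither RNase T1 library listed any cluster on an exon. RPL35 had the most reads of these. ZNF90, a KRAB zinc finger gene, held 104, 17 and 29 reads, annotated as 3′UTR but not placed on that of the main transcript. BEX3 held 85, 30 and 25 reads, and RPS15, a small-subunit ribosomal protein gene, held 74, 22 and 17. IRAK1, a kinase of Toll-like receptor signalling, held 70, 27 and 11 reads, and MAP3K11, a JNK pathway kinase, 69, 31 and 7. BCL3, an IκB family regulator of NF-κB and one of the genes the study names, held 60, 19 and 9 reads in its 3′UTR with a longest fragment of 26 nt. RPL10L, whose cluster sequence is also found in RPL10, held 73, 28 and 26 reads. In the 10 genes of this kind with the most reads the longest fragments were 7 to 26 nt, and only those of BCL3 and RPS15 reached 18 nt.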

How the data were processed

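IGF2BP3 IR-PAR-CLIP clusters of HCT116 cells were analysed, with a single library for each of 5 IGF2BP3 conditions and for IgG. The authors used UMI-tools 1.1.1 for molecular identifiers, Trimmomatic 0.30 to keep reads of 18 to 45 nt, Bowtie 0.12.7 to align them to GRCh38 allowing 3 mismatches, and PARalyzer to call clusters in each library. Per cluster, the deposited files give a count of reads and a count of conversion events, neither of them normalized, so that depth here is the sum of cluster reads. Every deposited cluster sequence was identical to the genome.

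Clusters were annotated with GENCODE release 44, where a 3′UTR of any transcript took precedence over coding sequence, then 5′UTR, then other exons, then introns. Overlaps, G-to-G fragments, base shares, tetramers and exact matches in protein-coding transcripts were computed in Python 3.11.15 (pysam 0.24.0, pandas 2.3.3, numpy 2.4.6, samtools 1.23.1, matplotlib 3.10.9 for plots), and the overlap, fragment and interval code was tested on simulated data. Shares carry Wilson 95% intervals and differences Newcombe intervals, counted over clusters, or over nucleotides for the G share. The naming rule took the 15 genes whose exonic clusters had the most reads, the 5 genes with the most such clusters (9 with ties), and of each gene list all genes with such a cluster, or the 3 with the most reads where over 5 had one, of which some are given and some are not reported here. Genes without an RNase T1 cluster were picked from the 10 with the most reads after values were seen. The clusters and gene lists were chosen with earlier results of these data known. The measure fixed at the start was the fragment at the mode. The middle of the cluster, the longest fragment under all settings, the pairs within genes and the removal of sequence copies were added after the data were seen.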

Additional observations from a re-analysis of the deposited data

How the results depend on the processing

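Each condition had 1 library, so no replicate was left out and no spread between replicates of a condition is known. Depth was taken from cluster reads, the RNase T1 0.25/0.25 library was the shallowest, and an absent cluster does not show that no read was there. Read lengths and reads outside clusters were not used here. No paired analysis was possible because each condition had a single library. The cause of the changes below was not tested.

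The number of T1-absent clusters was 3272, against 5537 with a minimum of 10 reads, 579 with 50 reads, 1578 with a reciprocal overlap of 50%, and 719 and 615 when taken from RNase I 0.1/0.025 and 0.05/0.025 (9.09% and 9.29% of their candidates). It was 2342, 3693 and 2569 without RNase T1 clusters within 50 nt, with RNase T1 1/1 alone, and above 10 CPM. The 3′UTR share, 56.1%, moved to 50.4% at 50 reads, 49.6% without RNase T1 within 50 nt, 44.7% with coding sequence first, 65.9% without sequence copies, 53.1% and 28.6% at 50-99 and at 100 or more reads, and 19.7%, 58.3% and 76.3% under 60, at 60-99 and from 100 nt. The share in genes with an RNase T1 cluster, 95.7%, moved to 93.7% without RNase T1 within 50 nt.

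The difference in longest fragments kept its sign in all settings run. From -42.4 points it moved to -49.3 against clusters overlapping both RNase T1 libraries, -39.7, -39.0 and -54.4 at 20-49, 50-99 and 100 or more reads, -21.4 and -36.2 under 60 and at 60-99 nt, and -26.4 and -29.6 for fragments of 15 and 25 nt. The difference at the mode, -5.11 points, also kept its sign and moved to -2.97 at 50 reads, -2.08 with 1 cluster per gene, -7.99 and -2.06 at 20-49 and 100 or more reads, -12.5 and -7.93 under 60 and at 60-99 nt, -3.00 for fragments of 25 nt, -6.58 with 1 missed cleavage, -42.4 for the longest fragment and -14.4 at the middle.

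The G share difference, 0.881 points, was reversed at 100 or more reads (-0.892). It moved to 1.16 without RNase T1 within 50 nt, 1.299 against clusters overlapping both RNase T1 libraries, 0.352 with 1 cluster per gene (interval -0.143 to 0.853), 1.74 and 1.75 at 20-49 and 50-99 reads, 1.88, 2.16 and 1.48 under 60, at 60-99 and from 100 nt, and 2.57 at the middle. The difference in median conversion events per read, 0.0178, moved to 0.0111 with 1 cluster per gene, 0.0250, 0.0232 and 0.0135 in the 3 read classes, and 0.0484, 0.0277 and 0.0321 in the 3 length classes, from low to high. Of the 5 tetramers, 2 had an interval that excluded 0. This was 4 against clusters overlapping both RNase T1 libraries and at the middle, 1 at 50 reads, at 20-49 reads, in each length class and in 21 nt windows, and 0 with 1 cluster per gene and at 50-99 and 100 or more reads. CAUU, 1.32 points at the mode, reversed at the middle (-3.43 points) and was also below 0 at the mode at 20-49 reads (-1.74) and in the 3 length classes (-0.461, -2.92 and -0.337), these 4 with intervals that include 0. CAGU, 1.94 points, fell to 0.963 at 20-49 reads and to 0.404 and 0.503 at 60-99 and from 100 nt, with intervals that include 0.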
